A study of Mus musculus with 24 samples.

Results

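miR-26a-5p and miR-26b-5p (mmu-miR-26a-5p and mmu-miR-26b-5p on the array) are the mature guide strands of the miR-26 family, and they were measured here in mouse hepatocytes sorted by their place in the liver lobule, whose axis joins the central vein and the portal tract. They are 2 of the 1881 mouse miRNAs on the array, chosen by name, and both were called detected on all 24 arrays. Hepatocytes came from 3 untreated male C57BL/6J mice aged 3 months, fed ad libitum and held on a reversed light-dark cycle, with no genotype or treatment that differed between groups. From each mouse 50000 viable tetraploid hepatocytes lacking CD45 and CD31 were sorted into each of 8 populations by CD73, a surface protein of pericentral hepatocytes, and E-cadherin, one of periportal hepatocytes. These populations are called zones 1 (most pericentral) to 8 (most periportal), so a zone is a gate on surface protein and not a measured distance, and each zone had 1 array from each mouse. The arrays measured the average of sorted cells, in which fewer cells holding a miRNA and less of it per cell cannot be told apart.

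MicroRNAs guide Argonaute proteins to messenger RNAs that pair with the seed, a short stretch near the 5′ end, and lower the output of those messages. The miR-26 genes are known to lie in introns of genes for small phosphatases that act on the C-terminal domain of RNA polymerase II. In liver, miR-26a is known for effects on insulin sensitivity and glucose production and for restraining the growth of hepatocellular tumours, in part through cell cycle messages and Ezh2.

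Both members carry the same seed, and they are shown because the array has to tell them apart by the few bases that differ. The sequences are from RefSeq (GRCm38.p6), written 5′ to 3′ with the seed (bases 2 to 8) in capitals.
mmu-miR-26a-5p: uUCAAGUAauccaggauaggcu
mmu-miR-26b-5p: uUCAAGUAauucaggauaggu
Counted from 1 at the 5′ end, with the miR-26a-5p base first, they differ by C11U and C21U, so that 19 of 21 aligned bases are identical, and miR-26a-5p is 22 bases long against 21 for miR-26b-5p. No other mature mouse miRNA in the RefSeq table has this seed. How far the probe of one member also binds the other was not tested.

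miR-26a-5p is made from a pair of genes and miR-26b-5p from a single one. Mir26a-1 places the mature sequence at chr9:119031811-119031832, inside Ctdspl, and Mir26a-2 places the same sequence at chr10:126995543-126995564, inside Ctdsp2. Mir26b places miR-26b-5p at chr1:74394324-74394344, inside Ctdsp1. All 3 hairpins are on the plus strand, as are these host genes. The array signal of miR-26a-5p does not separate the products of its 2 genes. The opposite arms of the 3 hairpins would separate them, and are printed for that reason, again with bases 2 to 8 in capitals.
miR-26a-1-3p: cCUAUUCUugguuacuugcacg
miR-26a-2-3p: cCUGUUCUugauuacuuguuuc
miR-26b-3p: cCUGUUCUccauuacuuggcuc
miR-26a-2-3p and miR-26b-3p share a seed, and that of miR-26a-1-3p differs from it. Each of the opposite arms was called detected on 0 of 24 arrays, so these data hold no level that divides the miR-26a signal between Mir26a-1 and Mir26a-2.

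Between 248 and 368 miRNAs were called detected on an array, and the summed signal lay between 57935 and 138301 intensity units. Each mouse had its own slide with 8 arrays, so mouse and slide are the same factor. Zones 5 to 8 occupied the second row of every slide and zones 1 to 4 the first, so that a difference between these 2 sets of zones and one between slide rows cannot be told apart. All 4 hepatocyte markers, among them miR-122-5p, were detected on all 24 arrays. Of 21 markers of leukocytes, endothelium, stellate cells, biliary epithelium and erythroid cells, 19 were never detected, while the endothelial miR-126a-3p was detected on 9 of the 12 periportal arrays (zones 5 to 8) and on 7 of the 12 pericentral ones (zones 1 to 4), and the epithelial miR-200b-3p on 1 periportal array. Their part in the results was not tested. Signals below are scaled by the 75th percentile of the array, taken over the 198 miRNAs that every array detected, and keep the unit of intensity. The fits count arrays, so the 12 arrays on a side stand for 3 mice.

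The level of miR-26a-5p was higher in zones 5 to 8 than in zones 1 to 4 of each mouse. Mouse 1 had scaled signals of 266.8, 233.3, 220.4, 244.3, 326.7, 340.0, 324.2 and 306.6 in zones 1 to 8. Mouse 2 had 167.6, 232.1, 241.6, 192.6, 299.7, 308.0, 323.4 and 322.6. Mouse 3 had 278.9, 263.2, 272.8, 264.4, 287.9, 310.7, 375.1 and 353.6. In all 3 mice the lowest value of zones 5 to 8 exceeded the highest of zones 1 to 4, and this held also across mice, with 287.9 as the lowest of the 12 periportal arrays and 278.9 as the highest of the 12 pericentral ones. Complete separation of the sides over all arrays, periportal higher, was found for 4.13% of the 339 tested miRNAs, and separation within each of the 3 mice for 5.6%. Without scaling 7 of the 12 periportal arrays, and with scaling to the summed signal 6, lay above every pericentral array. The sides were then apart within 1 mouse without scaling and within all 3 with the summed signal. Shares over all tested miRNAs were not counted under these 2 alternatives.

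**Figure D1:**
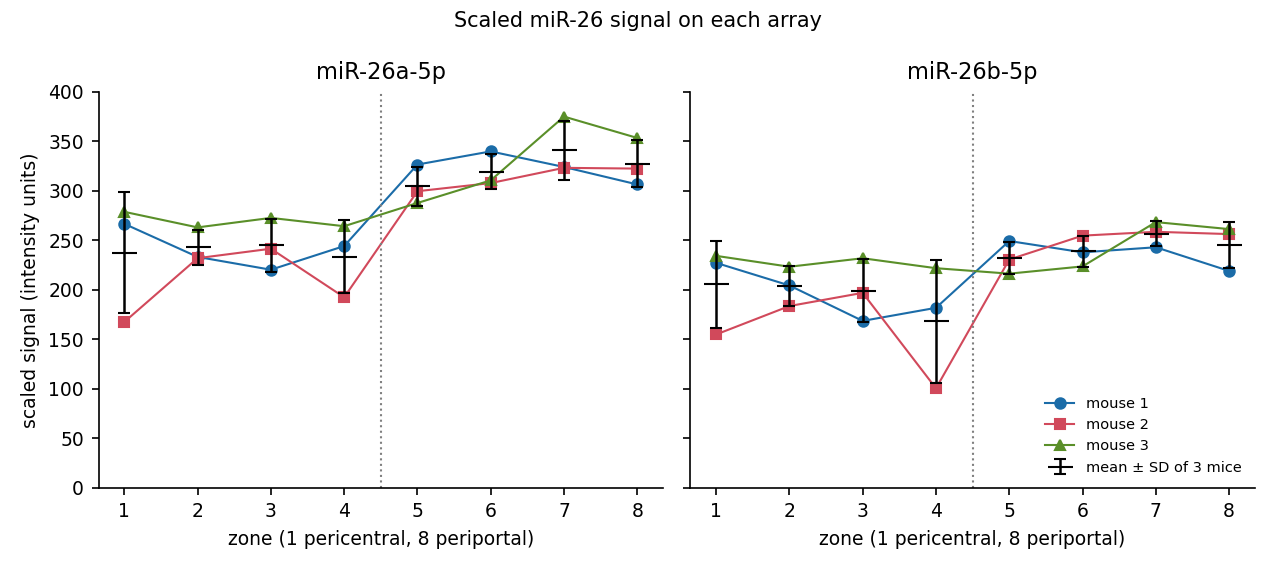
Scaled signal in intensity units (y) of miR-26a-5p (left) and miR-26b-5p (right) in zones 1 to 8 (x), with 1 line for each mouse, black marks for the mean ± SD of 3 mice, and a dotted line between zones 4 and 5, where the slide row also changes. All 12 miR-26a-5p values of zones 5 to 8 are at 287.9 or more, and the zone 4 array of mouse 2 has the lowest miR-26b-5p value, 100.5.

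For miR-26b-5p the 2 sides were apart in 1 of 3 mice. Mouse 1 had scaled signals of 227.3, 204.5, 168.7, 181.9, 249.4, 238.0, 243.1 and 219.2 in zones 1 to 8. Mouse 2 had 155.0, 183.7, 197.0, 100.5, 230.7, 254.8, 258.7 and 256.4. Mouse 3 had 234.4, 223.4, 232.0, 221.9, 216.4, 223.8, 268.5 and 261.5. The sides overlapped in mouse 1, by the zone 1 and zone 8 arrays, and in mouse 3, where zones 5 and 6 lay among or below zones 1 to 4, while in mouse 2 they were apart. Of the 12 periportal arrays 8 lay above every pericentral one. This overlap moved with the scaling, since the sides were apart within 3 mice with scaling to the summed signal and within 0 mice without scaling. For these counts of miR-26b-5p no share over all tested miRNAs was taken. Errors given in the files for these signals were 7.30% to 8.40% of the signal for miR-26a-5p and 7.26% to 7.39% for miR-26b-5p.

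Ordered by level, zones 1 to 4 took the lower places and zones 5 to 8 the upper ones for both members. The mean log2 scaled signal of miR-26a-5p was lowest in zones 4 (7.86 ± 0.24), 1 (7.86 ± 0.41), 2 (7.92 ± 0.10) and 3 (7.93 ± 0.15), followed by zones 5 (8.25 ± 0.09), 6 (8.32 ± 0.08), 8 (8.35 ± 0.10) and 7 (8.41 ± 0.12; SD, n = 3 mice each). Of the neighbours in this order only zones 5 and 3 had ranges of 3 mice that did not overlap, with a difference of 0.32. The order was taken from these same values, and the share of all tested miRNAs with such a gap was not counted. For miR-26b-5p the order was zones 4 (7.32 ± 0.59), 3 (7.63 ± 0.23), 1 (7.66 ± 0.33), 2 (7.67 ± 0.14), 5 (7.86 ± 0.10), 6 (7.90 ± 0.09), 8 (7.94 ± 0.14) and 7 (8.00 ± 0.07), and the ranges of every pair of neighbours overlapped. The widest step in this order was between zones 3 and 4 (0.31), against 0.19 between zones 5 and 2. Zone 7 had the highest mean and zone 4 the lowest for both members, though neither stood apart from the next zone in the order.

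The comparison of the periportal with the pericentral side asked how much higher each member was in zones 5 to 8. The mean log2 scaled signal of miR-26a-5p was 8.33 ± 0.11 in zones 5 to 8 and 7.89 ± 0.22 in zones 1 to 4 (SD over 12 arrays of 3 mice each). The difference was 0.44 ± 0.09 (SE), or 1.36-fold, and passed limma's test (adjusted p = 0.00154). That of miR-26b-5p was 7.92 ± 0.11 and 7.57 ± 0.35, and its difference of 0.36 ± 0.11, or 1.28-fold, passed as well (adjusted p = 0.0398). Among all tested miRNAs 10.3% were called higher in this comparison, and the median difference was -0.08. With mouse as a block the share was 13.3%, and limma's adjusted p was 0.00039 for miR-26a-5p and 0.0183 for miR-26b-5p. The direction was shared by all 3 mice for both members. The differences within mice 1, 2 and 3 were 0.43, 0.60 and 0.29 for miR-26a-5p and 0.29, 0.70 and 0.08 for miR-26b-5p.

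With 2 mice the call on miR-26b-5p was lost whichever mouse was left out, and the call on miR-26a-5p was lost without mouse 1. Without mouse 2 the difference of miR-26b-5p was 0.19 (limma adjusted p = 0.217) and that of miR-26a-5p 0.36 (adjusted p = 0.0078). Without mouse 1 they were 0.39 (adjusted p = 0.207) for miR-26b-5p and 0.45 for miR-26a-5p (adjusted p = 0.0645). Without mouse 3 miR-26b-5p had 0.49 (adjusted p = 0.0539) and miR-26a-5p 0.52 (adjusted p = 0.0181). With no scaling miR-26b-5p did not pass (0.46, adjusted p = 0.173), and with quantile normalization the difference of miR-26a-5p was 0.21 (adjusted p = 0.0458).

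**Figure D2:**
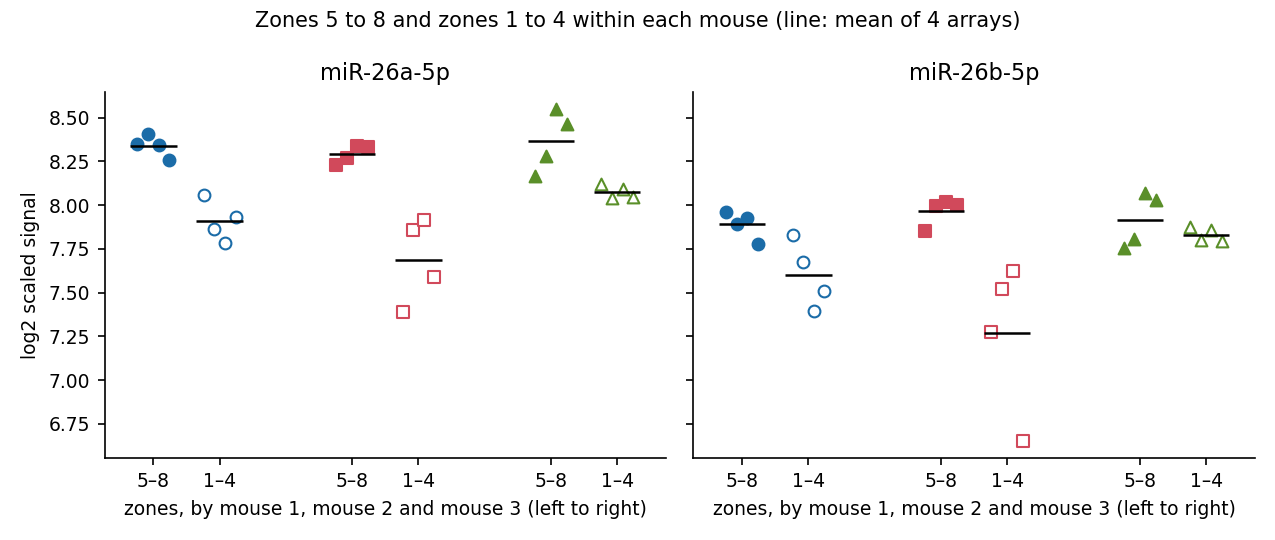
Log2 scaled signal (y) of miR-26a-5p (left) and miR-26b-5p (right) in zones 5 to 8 (filled) and zones 1 to 4 (open) of mice 1, 2 and 3 (x), with 1 point for each array in zone order and a line at the mean of 4 arrays. For miR-26a-5p the sides are apart in all 3 mice, and for miR-26b-5p in mouse 2 alone, where the difference of means is 0.70.

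The slope on the zone number fitted a steady change along the whole axis. A difference between the 2 sides alone also gives such a slope, so its calls are not independent of those above. miR-26a-5p rose by 0.089 ± 0.019 log2 units per zone (SE), a fitted change of 0.62 ± 0.13 from zone 1 to zone 8 (limma adjusted p = 0.00131), with slopes of 0.072, 0.13 and 0.067 in mice 1, 2 and 3. Of the tested miRNAs 10.3% rose, and miR-26a-5p had place 43 from the steepest of 339. miR-26b-5p had a slope of 0.059 ± 0.026, a fitted change of 0.41 ± 0.18, which did not pass (adjusted p = 0.121). Its slopes in the mice were 0.034, 0.12 and 0.027. The measured differences of zone 8 minus zone 1 were 0.50 for miR-26a-5p and 0.28 for miR-26b-5p. With mouse as a block 14.5% rose, and miR-26b-5p still missed the threshold (adjusted p = 0.0724).

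The call on the slope of miR-26b-5p changed with 1 array. When each of the 24 arrays was left out in turn, a check chosen after the values were seen, the slope of miR-26b-5p passed in 1 case, without zone 4 of mouse 2 (slope 0.055, limma adjusted p = 0.0223). In the other cases the adjusted p reached up to 0.243. miR-26a-5p passed in all 24, with adjusted p between 0.000464 and 0.00517. For the difference between the sides miR-26a-5p passed in 24 of 24 and miR-26b-5p in 11 of 24, with adjusted p of miR-26b-5p between 0.00883 and 0.0749.

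**Figure D3:**
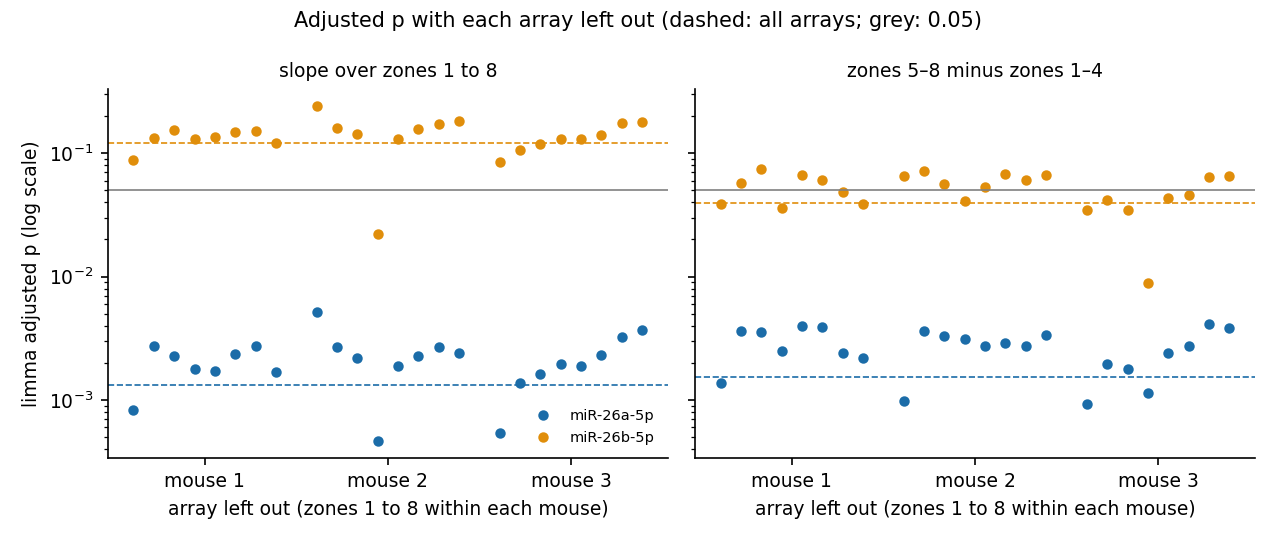
Limma adjusted p (y, log scale) with each of 24 arrays left out (x, zones 1 to 8 within mice 1 to 3) for the slope over zones 1 to 8 (left) and the difference of zones 5 to 8 and zones 1 to 4 (right). Dashed lines give the value with all arrays and the grey line 0.05. miR-26a-5p (blue) stays below 0.05 throughout, and for miR-26b-5p (orange) 1 of 24 points on the left and 11 of 24 on the right lie below it.

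Few miRNAs of the zone 4 array of mouse 2 lay as low as miR-26b-5p. After removal of mouse and zone means it lay at -0.54 log2 units, against -0.25 to 0.35 on the other arrays, while miR-26a-5p lay at -0.14 there. Of the 198 miRNAs detected on all arrays 2 had a residual as low as miR-26b-5p or lower on that array, miR-26b-5p included, against 57 as low as miR-26a-5p or lower. The array is the one where miR-26b-5p itself lay lowest, so its low place there follows in part from that choice. miR-26a-5p lay lowest in zone 1 of mouse 2, at -0.35.

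Within either set of 4 zones the slopes had intervals that included 0. Within zones 1 to 4 the slope of miR-26a-5p was 0.00053 per zone (95% confidence interval -0.11 to 0.11), and within zones 5 to 8 it was 0.040 (-0.066 to 0.15). For miR-26b-5p the slopes were -0.11 (-0.25 to 0.033) and 0.034 (-0.11 to 0.17). None of these passed in limma, where 0% of tested miRNAs were called within zones 1 to 4 (14 miRNAs at an unadjusted p under 0.05) and 1.18% within zones 5 to 8. When slide row was added as a term beside the zone number, the slope of miR-26a-5p was 0.020 ± 0.036 (SE, limma adjusted p = 0.961). That of miR-26b-5p was -0.036 ± 0.049 (adjusted p = 0.961). Without the row term the SE of miR-26a-5p was 0.019. The fit with the term called 0 of the 339 tested miRNAs (16 at an unadjusted p under 0.05), so the lack of a call was not particular to the members. Slide row divides the arrays exactly as zones 1 to 4 and zones 5 to 8 do. This fit therefore cannot tell a difference between these sets of zones from one between slide rows.

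At the step between zones 4 and 5, where the slide row also changes, the difference of zone 5 minus zone 4 was 0.39 ± 0.18 log2 units for miR-26a-5p (SE, limma adjusted p = 0.590) and for miR-26b-5p it was 0.54 ± 0.23 (adjusted p = 0.514). Neither passed, against 2.36% of all tested miRNAs. The differences of miR-26a-5p in mice 1, 2 and 3 were 0.42, 0.64 and 0.12, and those of miR-26b-5p were 0.46, 1.2 and -0.036. Mouse 2 thus had the widest step for both members. The fitted value of miR-26a-5p was 0.18 with quantile normalization (adjusted p = 0.905). That of miR-26b-5p was 0.21 without mouse 2 (adjusted p = 1) and 0.83 without mouse 3 (adjusted p = 0.252).

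The ends of the axis gave wider intervals than the 2 sides did. In zone 8 miR-26a-5p had a mean scaled signal of 327.6 ± 23.9, against 237.8 ± 61.1 in zone 1 (SD, n = 3 mice each). The log2 difference of 0.50 ± 0.18 (SE) did not pass in limma (adjusted p = 0.134), but did once mouse was a block (adjusted p = 0.0481). The share of miRNAs called higher was 4.72%, and 7.67% with the block. Differences within mice 1, 2 and 3 were 0.20, 0.94 and 0.34, and without mouse 2 the fitted value was 0.27 (adjusted p = 0.389). It was 0.24 with quantile normalization and 0.86 without scaling. miR-26b-5p averaged 245.7 ± 23.1 in zone 8 and 205.6 ± 44.0 in zone 1, with a log2 difference of 0.28 ± 0.23 that did not pass (adjusted p = 0.583). It was 0.48 with the summed signal, 0.64 without scaling, 0.44 without mouse 1 and 0.052 without mouse 2. Its differences within the mice were -0.053, 0.73 and 0.16. In mouse 1 miR-26b-5p was thus slightly lower at the periportal end.

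The F test over the 8 zones asks for differences of any shape. miR-26a-5p had F = 3.69 (limma adjusted p = 0.141), while the fit that blocks on mouse gave F = 5.05, which passed (adjusted p = 0.0377). miR-26b-5p had F = 1.90 (adjusted p = 0.705) and did not pass with the block (adjusted p = 0.302). The test called 5.31% of tested miRNAs, and 9.14% with the block.

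**Figure D4:**
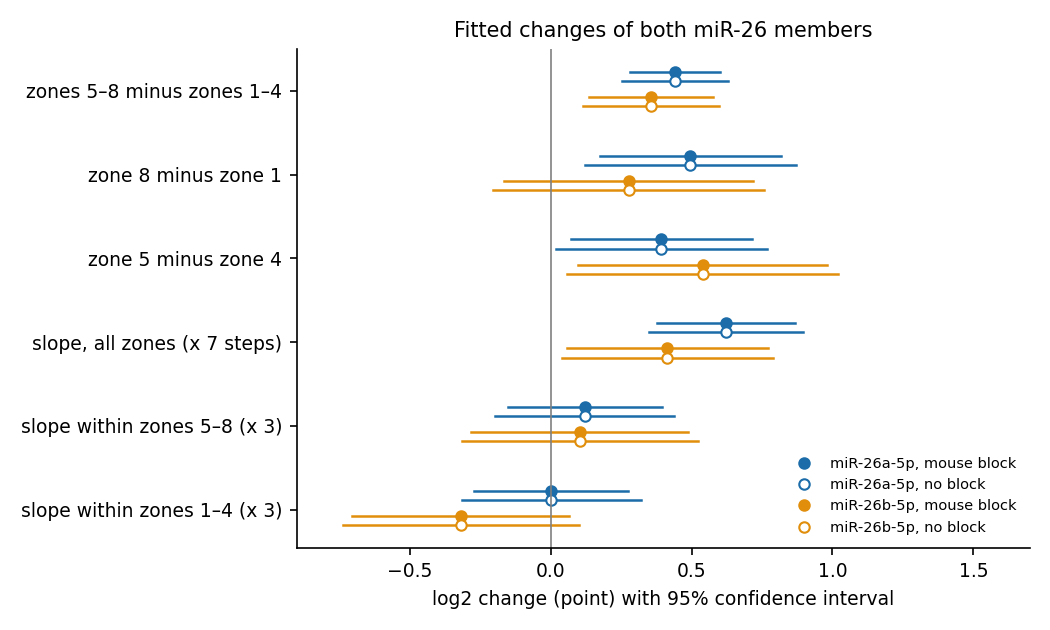
Fitted log2 changes (x) with 95% confidence intervals of miR-26a-5p (blue) and miR-26b-5p (orange) for each comparison (y), with mouse as a block (filled) and with no block (open). Slopes are multiplied by the number of zone steps. The intervals for zones 5 to 8 minus zones 1 to 4 lie above 0 for both members, around 0.44 and 0.36, and those within zones 1 to 4 and within zones 5 to 8 include 0. Those for zone 5 minus zone 4 lie above 0 as well, though neither member passed there after adjustment.

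The scalings differ in where they put the median of the 339 tested miRNAs, so the members were also set against it. Over the whole axis their median fitted change was -0.10 log2 units with the scaling used here, 0.10 unscaled, 0.04 after scaling to the summed signal and -0.07 with quantile normalization. Relative to these medians, miR-26a-5p changed by 0.72, 0.75, 0.75 and 0.37. miR-26b-5p changed by 0.51, 0.55, 0.54 and 0.55. Quantile normalization thus lowered the value of miR-26a-5p alone, and its slope was then 0.043 per zone. Unscaled, the slope of miR-26b-5p was 0.092. The slope of miR-26a-5p passed under all 4, with adjusted p of 0.00131, 0.0156, 0.00064 and 0.0381. That of miR-26b-5p passed with scaling to the summed signal (adjusted p = 0.0271) and with quantile normalization (adjusted p = 0.0443).

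Whether the members changed unequally was tested on the ratio of their signals within an array, which a single scaling factor per array leaves unchanged and quantile normalization does not. The ratio says nothing about which member is more abundant, as 2 probes need not give equal signal for equal amounts. The log2 ratio of miR-26a-5p over miR-26b-5p was 0.94 in zone 4 of mouse 2 and between 0.11 and 0.51 on the other 23 arrays. It was higher by 0.030 per zone towards the periportal end after removal of mouse means (permutation test of zone labels within mice, 100000 draws, two-sided p = 0.0350), a single test with no adjustment. In mice 1, 2 and 3 the slope was 0.039, 0.0098 and 0.041, with a mean of 0.030 ± 0.017 (SD, n = 3 mice). The permutation counts arrays, 8 from each mouse, so its p does not measure the spread between mice. After quantile normalization, an alternative chosen after the values were seen, the slope had the opposite sign, -0.025, and did not pass (permutation p = 0.201). The difference of zones 5 to 8 minus zones 1 to 4 was then smaller for miR-26a-5p (0.21) than for miR-26b-5p (0.41), so which member changed more depends on this choice.

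The mice agreed on the sign of this slope and not on its size. Mean log2 ratios in zones 5 to 8 were 0.45, 0.33 and 0.45 in mice 1, 2 and 3, against 0.31, 0.42 and 0.24 in zones 1 to 4. Mouse 2 alone thus had the lower mean ratio on its periportal side. Its mean in zones 1 to 4 includes 0.94 in zone 4, against 0.11, 0.34 and 0.29 in zones 1, 2 and 3. Without zone 4 of mouse 2 the slope was 0.032 (permutation p = 0.00020, 20000 draws), the lowest p with a single array left out. With each array left out in turn the slope passed in 16 of 24 cases. The permutation p reached up to 0.0919, so the call depends on single arrays. Without mouse 1 the slope was 0.025 (permutation p = 0.250) and without mouse 3 it was 0.024 (permutation p = 0.271). Without mouse 2 it was 0.040 (permutation p = 9.0e-05). These p-values also count arrays and not mice.

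**Figure D5:**
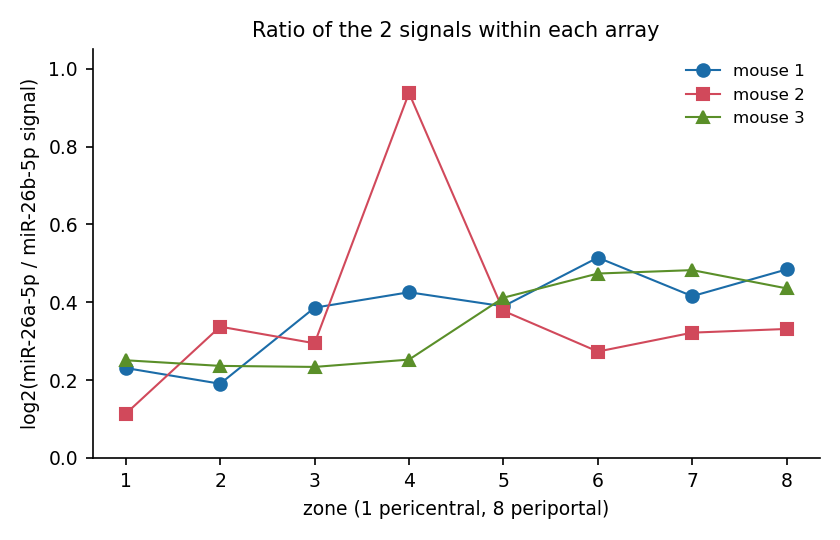
Log2 ratio of the miR-26a-5p to the miR-26b-5p signal (y) in zones 1 to 8 (x) of each mouse. Mice 1 and 3 lie higher in zones 5 to 8 (means 0.45 and 0.45) than in zones 1 to 4 (means 0.31 and 0.24), and the zone 4 array of mouse 2 stands at 0.94.

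The miRNAs most like each member were named by the Pearson correlation of log2 scaled signals, taken as deviations from the mean of each mouse, over 24 arrays that share 3 mice, slides and scaling. These correlations are a description, ranked over the 197 other miRNAs detected on all arrays. Closest to miR-26a-5p were miR-101a-3p (0.968), miR-30a-3p (0.967), miR-122-5p (0.961), the hallmark miRNA of liver cells, miR-99a-5p (0.956) and miR-21a-5p (0.953). Each of these 5 rose in the slope test, with slopes from 0.098 (miR-101a-3p) to 0.23 (miR-99a-5p) per zone. Among all tested miRNAs 10.3% rose. The 5 were picked for their likeness to a member that rose, so their own rise follows from that choice. miR-26b-5p came at place 23 in this order, with 0.838.

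A different set of miRNAs stood closest to miR-26b-5p. They were miR-122-3p (0.953), let-7g-5p (0.942), let-7f-5p (0.936), miR-30b-5p (0.932) and miR-193a-3p (0.906), with miR-26a-5p at place 16. Of these 5 let-7g-5p rose in the slope test (0.082 per zone, limma adjusted p = 0.0166), and the other slopes lay between 0.032 (let-7f-5p) and 0.079 (miR-122-3p) without passing. Without zone 4 of mouse 2 the correlation between miR-26a-5p and miR-26b-5p was 0.928, miR-30b-5p stood closest to miR-26b-5p with 0.965, and let-7f-5p had 0.852. The order around miR-26b-5p therefore moved with this array. That around miR-26a-5p moved too, with miR-101a-3p then at place 3 and miR-26b-5p at place 12.

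The miR-26 members were set beside 2 lists of other miRNAs that leave both of them out and share 4 members, the miR-29 family and miR-34a-5p. Both lists were chosen with earlier results of these data known, so their counts and medians are a description and not a test. Of 14 miRNAs known to act on insulin signalling or hepatic glucose output 11 were tested, 2 rose and 1 fell in the slope test, and 8 did not pass, where 10.3% of all tested miRNAs rose and 6.49% fell. miR-802-5p, known to impair glucose tolerance when raised in liver, rose. It was detected on 12 arrays of zones 5 to 8 and on 0 of zones 1 to 4. It thus entered the test through its higher side alone, and its rise follows from its detection. The floor sets the size of its change, and none is given. miR-378a-5p, from an intron of Ppargc1b, had a fitted rise of 0.39 ± 0.13 log2 units over the axis (SE, limma adjusted p = 0.0388). miR-107-3p, known to lower insulin sensitivity, had a fitted fall of 0.45 ± 0.13 (limma adjusted p = 0.0206). The median fitted change of the 11 was 0.23, against -0.10 over all tested miRNAs and 0.62 for miR-26a-5p. Blocking on mouse gave 5 that rose and 1 that fell, while 14.5% of all tested miRNAs rose and 16.5% fell in that fit.

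Of 20 miRNAs described as restraining the growth of liver tumours 15 were tested, and 6 rose, 0 fell and 9 did not pass in the slope test, where 10.3% of all tested miRNAs rose and 6.49% fell. The median fitted change of the 15 was 0.32, against -0.10 over all tested miRNAs. Blocking on mouse gave 7 that rose and 0 that fell, against 14.5% and 16.5% of all tested miRNAs. The steepest were miR-125b-5p, with a fitted rise of 1.71 ± 0.19 log2 units (SE), and miR-99a-5p, with 1.59 ± 0.19. The least steep of the 6 were let-7g-5p, with 0.58 ± 0.17, and miR-148a-3p, with 0.68 ± 0.16, so the 0.62 of miR-26a-5p lay between them. The 5 members not tested, among them miR-199a-3p and miR-223-3p, were not detected on any array.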

How the data were processed

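Cy3-labelled RNA of 24 sorted hepatocyte populations was measured on 1-colour miRNA arrays (Agilent), as the labels' protocols state. Per the file headers, the authors deposited a linear intensity for each miRNA (total gene signal), its error, and a detection call of 1 or 0. Feature Extraction is the tool named in the submitters' processing notes (its version is not given in the sources used). A miRNA called undetected has a signal of 0.1 in the deposited files. Slide and row were read from the names of the deposited scans.

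After 21 control sequences were dropped, the scaling factor of an array was its 75th percentile (over the 198 miRNAs with detection on all arrays) relative to the mean percentile, and log2 was taken with values below 1.12 set to 1.12. The 339 miRNAs detected on at least 6 arrays were tested with limma 3.58.1 in R 4.3.3 (lmFit, eBayes, two-sided, Benjamini-Hochberg over all 339, threshold 0.05). All 24 arrays entered each fit with no block. The mouse numbers pair the arrays, since the 8 populations of a number came from 1 animal, and arrays of a mouse deviated together from the zone means (median correlation 0.610, lowest 0.254), so mouse as a block was the paired alternative. The precision is limited by 3 mice. The members and lists were chosen with earlier results of these data known. Named miRNAs were the members, their opposite arms, the 5 most correlated with each, and list members past the slope test (all of up to 4, otherwise the 2 highest and 2 lowest slopes). Fits and permutations were tested on simulated data. Figures used matplotlib 3.10.9 in Python 3.11.15.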

Additional observations from a re-analysis of the deposited data

How the results depend on the processing

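Slopes are in log2 units per zone and differences in log2 units. With mouse as a replicate block the difference of miR-26a-5p between zones 8 and 1 (0.50) and its F (5.05) passed, and no other call on the members changed. With slide row as a term, with or without the replicate block, the slope of miR-26a-5p was 0.020 and did not pass and that of miR-26b-5p was -0.036. With mice left out the slope of miR-26b-5p was 0.030 to 0.076. It passed with the summed signal (0.083), quantile normalization (0.068) and without zone 4 (0.054), and lay between 0.051 and 0.070 with single arrays left out (0.076 and 0.099 for miR-26a-5p). Its difference between zones 5 to 8 and zones 1 to 4 did not pass without scaling (0.46) or without any mouse (0.19 to 0.49), and lay between 0.27 and 0.42 with single arrays left out. That of miR-26a-5p was 0.36 to 0.52 with mice left out, with no call when mouse 1 was absent, and 0.38 to 0.47 with single arrays left out. Slopes that never passed changed sign: miR-26a-5p within zones 1 to 4 (-0.032 to 0.024 with mice left out) and within zones 5 to 8 (-0.032 with quantile normalization), and miR-26b-5p within zones 5 to 8 (-0.015 with quantile normalization, -0.0025 to 0.078 with mice left out). The slope of the ratio was 0.024 to 0.040 with mice left out, passing without mouse 2 alone, and 0.024 to 0.035 with single arrays left out, where it passed in 16 of 24. With no replicate block its p was 0.0273, and quantile normalization turned its sign (-0.025, permutation p = 0.201).

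Counts of miRNAs called moved with the setting as well. For the slope over all zones 35 were higher, and 0 with slide row as a term (16 at an unadjusted p under 0.05, or 37 with the replicate block, which also left 0 calls). For zone 8 against zone 1 there were 16 higher, 26 with the replicate block and 9 among miRNAs detected on all arrays. For zones 5 to 8 against zones 1 to 4 there were 35 higher, 22 among miRNAs detected on all arrays and 23 to 29 with mice left out. Zone 5 against zone 4 gave 8, with 5 without scaling and with the summed signal, 2 among miRNAs detected on all arrays and 5 to 8 with mice left out. The F test gave 18, with 31 under the replicate block, 9 without scaling and 10 to 12 with mice left out. Within zones 1 to 4 there were 0 (14 at an unadjusted p under 0.05), 1 with the block, 1 among miRNAs detected on all arrays and 2 among those detected on at least 1. Within zones 5 to 8 there were 4, 7 with the block, 2 with trend and robust, 1 with the summed signal, 0 to 1 with mice left out, and 0 without scaling, with a floor 4 times lower and among miRNAs detected on all arrays (9, 21 and 13 at an unadjusted p under 0.05). The split of higher against lower calls in the slope was 35 to 22, 36 to 3 without scaling, 44 to 6 with the summed signal and 31 to 24 with quantile normalization. Both members were detected on all arrays, so the floor did not touch their values.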

Other observations

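As a share of an array's summed signal, miR-26a-5p held between 0.176% and 0.480% (median 0.315%) and miR-26b-5p between 0.122% and 0.345% (median 0.236%). By signal miR-26a-5p stood at places 19 to 27 among the miRNAs of an array and miR-26b-5p at places 21 to 40. Signals of different probes do not rank amounts.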
